A study of Mus musculus with 27 samples.

Results

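Cathepsins are the proteases of the lysosome, and cystatin C is the main secreted inhibitor of those that cut with a cysteine. The transcripts described here are the 9 cathepsin genes Ctsa, Ctsb, Ctsc, Ctsd, Ctsh, Ctsk, Ctsl, Ctss and Ctsz together with Cst3, which encodes cystatin C. These 10 genes were chosen by symbol and family, not by a threshold on their values, but with earlier results of these data known. They are not the whole family: other cathepsins, such as Ctso and Ctsf, were counted in a separate list. All 10 genes were found among the 53379 genes of the count table. They were followed in bulk RNA-seq of mouse hepatic stellate cells (HSCs), the vitamin A storing cells of the liver that turn into matrix-producing myofibroblasts after injury. All cells came from male Balb/c mice, were sorted after liver perfusion for the ultraviolet fluorescence of their retinoid droplets, and were lysed without culture.

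The 27 libraries fell into 7 groups. Healthy mice (n = 4), aged 10 to 12 weeks, were not injected. Acute groups, of the same age, received 1 intraperitoneal injection of the hepatotoxin carbon tetrachloride (CCl4) and were taken after 24 h (n = 3), 72 h (n = 4) or 7 days (n = 4). Chronic groups, aged 8 to 10 weeks at the start of the course, received 8 injections over 4 weeks. They were taken 24 h, 72 h or 14 days later (n = 4 each), and so at a greater age. The dose was 0.5 µL of CCl4 per gram body weight in mineral oil. Since healthy mice received no oil, the effects of CCl4 and of its vehicle cannot be told apart. The chronic course and the age of the mice, at its start or when taken, cannot be told apart either.

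Between 6314801 and 13052838 counts were assigned to genes per library. The libraries formed a lower depth class of 8 (up to 7580709 counts) and a higher one of 19 (from 10792560 counts). The lower class held all 4 chronic 14 d libraries, replicates 1 and 2 of chronic 24 h, and 2 of the chronic 72 h libraries, so depth and group cannot be told apart at chronic 14 d. The labelled cell type was borne out by its markers: 12 stellate cell genes, among them Dcn and Lrat, summed to 13500 to 48900 CPM (counts scaled to a common library size) in every library. Transcripts of other liver cells were also present. The sum of 18 macrophage genes, led by Lyz2, ran from 206 to 790 CPM in healthy, 196 to 287 in acute 24 h, 381 to 788 in acute 72 h and 4500 to 11800 in acute 7 d libraries. In the chronic course it ran from 692 to 4380 CPM at 24 h, 1210 to 3460 at 72 h and 928 to 2480 at 14 d. Of the macrophage genes only Marco was at 0 in all healthy libraries and only Ms4a7 in all acute 24 h libraries. In chronic 24 h the macrophage sum was 3250 and 4380 CPM in the 2 libraries of lower depth and 692 and 1410 CPM in the 2 of higher depth. Summed hepatocyte transcripts (8 genes) ranged from 106 CPM in acute 24 h to 6190 CPM in chronic 14 d, and summed sinusoidal endothelial transcripts (8 genes) from 46.3 to 588 CPM. The neutrophil, T and NK, B and dendritic cell lists reached at most 47.7 CPM in any library, but several of their genes were higher than in healthy HSCs. Of 5 neutrophil genes tested, 4 were called higher at acute 7 d and at each chronic time, 3 at acute 24 h and 2 at acute 72 h. B cell genes were higher in 4 of 4 at acute 7 d and chronic 14 d, 3 at chronic 72 h and 2 at chronic 24 h, dendritic cell genes in 3 of 4 tested at acute 7 d and 2 at chronic 14 d, and T and NK cell genes in 1 of 3 tested at acute 7 d and at each chronic time. Of all genes tested, 9.41% were called higher at acute 24 h, 8.23% at acute 72 h and 9.23% at acute 7 d. In the chronic course the share was 11.2% at 24 h, 7.88% at 72 h and 4.55% at 14 d. The part of neutrophils, T and NK cells, B cells and dendritic cells in the member levels was not tested. Over the 27 libraries many member genes moved with the mean log2 CPM of the 18 macrophage genes, Ctss most closely (r = 0.967). Ctsc (r = 0.212) and Cst3 (r = -0.392) did not follow it closely. In bulk samples fewer cells of a type and less RNA per cell cannot be told apart.

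Cathepsins are made as inactive precursors, carried to the lysosome by mannose 6-phosphate receptors and activated at acid pH. Ctsb, Ctsc, Ctsh, Ctsk, Ctsl, Ctss and Ctsz are cysteine proteases, Ctsd is an aspartic protease, and Ctsa is a serine carboxypeptidase that also shields beta-galactosidase and neuraminidase from breakdown. Secreted cathepsins can cut matrix proteins, and cystatin C blocks the cysteine group but neither Ctsd nor Ctsa. Ctss trims the invariant chain of MHC class II in antigen-presenting cells, and Ctsk is the collagen-cutting enzyme of osteoclasts. In the liver all of these genes are active in several cell types, macrophages in particular being rich in lysosomes.

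The genes lie on chromosomes 2, 3, 7, 9, 13 and 14 of the mouse genome (GRCm38, GENCODE M21). Ctsk (chr3:95499256-95509362) and Ctss (chr3:95526786-95556403) are neighbours on the forward strand, with 17423 bases and 0 annotated genes wholly between them. Promoter sequences (250 bases before and 50 after the start, RefSeq, GRCm38.p6) were at hand for 8 of the 10 members and were searched on both strands for 4 short motifs. The stretches below show the E-box CACGTG, the core of the site bound by lysosomal gene regulators of the TFEB family, and GAGGAAG, a core read by the myeloid factor PU.1, here as its reverse complement. Capitals mark the motif, with any T or A flanking the E-box that extends it to TCACGTG on either strand. Positions count from 0 at the RefSeq start, negative upstream. The Ctsa stretch (chr2:164833757-164833786, forward strand, -16 to 13) and the Ctsd stretch (chr7:142387908-142387937, reverse strand, -110 to -81) lie in exons of their own genes and within annotated untranslated exon sequence of at least 1 transcript each. The Ctss stretch (chr3:95526696-95526795, forward strand, -90 to 9) reaches into the first exon, while the Ctsk (chr3:95499090-95499189, forward strand, -120 to -21) and Ctsc (chr7:88277875-88277974, forward strand, -210 to -111) stretches lie outside the annotated genes.
Ctsa: ctgTCACGTGAtgcagatgcTCACGTGAcc
Ctsd: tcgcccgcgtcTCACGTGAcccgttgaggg
Ctss: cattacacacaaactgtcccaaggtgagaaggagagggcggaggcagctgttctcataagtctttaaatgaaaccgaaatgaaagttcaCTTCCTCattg
Ctsk: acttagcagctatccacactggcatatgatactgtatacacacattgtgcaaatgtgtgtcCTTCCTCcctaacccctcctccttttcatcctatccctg
Ctsc: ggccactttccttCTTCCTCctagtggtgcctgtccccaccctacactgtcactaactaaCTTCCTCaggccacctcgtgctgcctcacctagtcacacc

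The E-box was found in the promoters of Ctsa, Ctsd and Ctsl, 3 of 8 members with a sequence, against 7.15% of all 32851 promoters of that length. The extended form TCACGTG was in 2 of the 8, against 3.77%. GAGGAAG was in Ctsc, Ctsk and Ctss, against 13.6% of all promoters, and the AP-1 motif TGANTCA in none of the 8, against 7.81%. The same E-box stood in 7 of 30 promoters of other lysosomal hydrolases, 6 of 21 of lysosomal membrane proteins and 4 of 12 of proton pump subunits, in 3 of 5 of the dendritic cell genes and in 0 of 13 of the macrophage genes. Of the 2 Ctsa promoters, the one farther upstream held none of the 4 motifs. These are matches of letters and say nothing of binding.

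**Figure D1:**
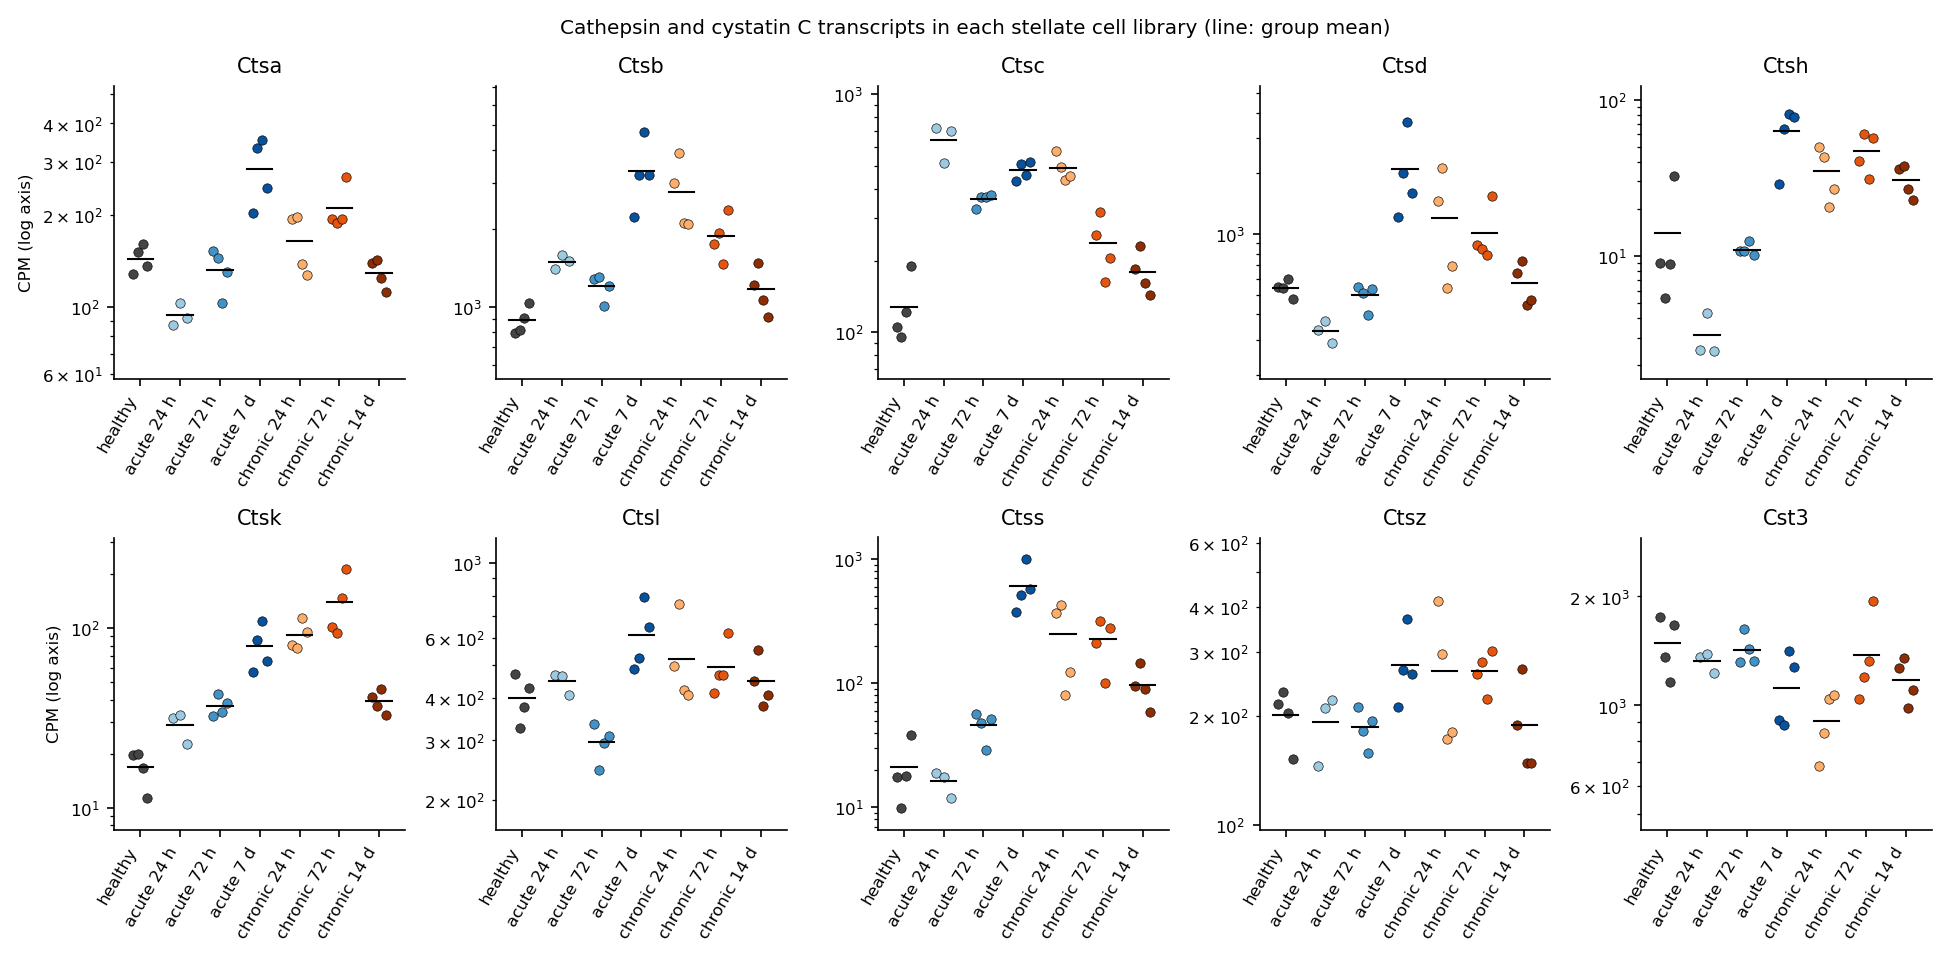
Level of each member (CPM, log axis) in the 27 libraries, points by library and a line at each group mean. Ctss spans 9.85 to 992 CPM, Ctsk peaks in chronic 72 h, Ctsc in acute 24 h, and Cst3 stays between 679 and 1940 CPM.

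Per kilobase of exon, Cst3 was the most abundant member in 6 of the 7 groups, at 1170 CPM per kilobase in healthy HSCs, where it ranked 36 of 18741 genes. Ctsd followed with 230, Ctsb with 147 and Ctsz with 139 CPM per kilobase. Ctsh, an aminopeptidase, was the scarcest at 3.1, with Ctsk at 11.2 and Ctss at 15.4. The order was different at acute 7 d, where Ctsd reached 895 CPM per kilobase (rank 47), beside 887 for Cst3 (rank 49), and Ctsb reached 552 and Ctss 450. Together the 10 members took 0.364% ± 0.0308 (SD, n = 4) of all counts in healthy, 0.64% ± 0.191 (n = 4) in chronic 24 h and 0.905% ± 0.248 (n = 4) in acute 7 d libraries.

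**Figure D2:**
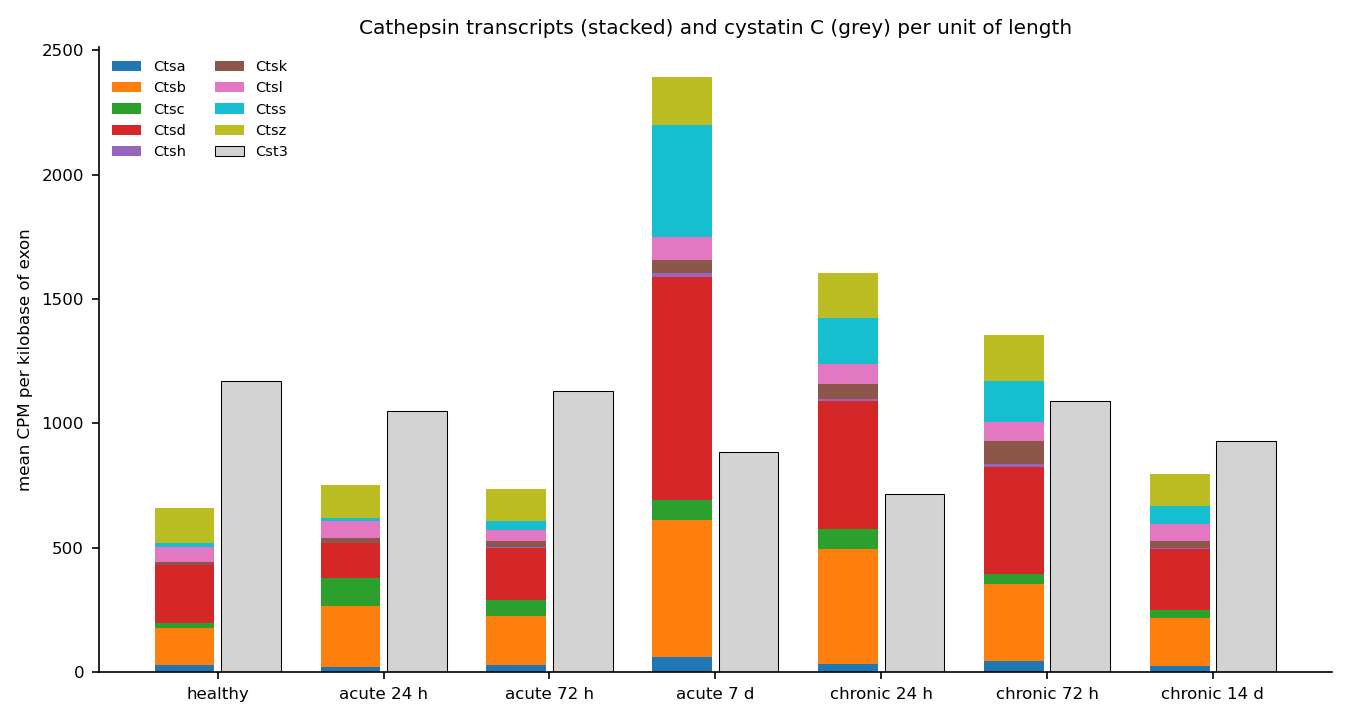
Mean level per kilobase of exon (CPM per kilobase, linear axis from 0) in each group, with the 9 cathepsins stacked and Cst3 as a grey bar beside them. The cathepsin stack stands below Cst3 in healthy HSCs and above it in acute 7 d, chronic 24 h and chronic 72 h.

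Ctss, the invariant chain protease, had the widest range of all members. Its level was 17.7, 9.85, 18 and 38.3 CPM in the healthy libraries and 19.1, 17.6 and 12 CPM at acute 24 h. It was 57, 48.1, 28.9 and 51.3 CPM at acute 72 h and 373, 512, 992 and 568 CPM at acute 7 d. All acute 7 d libraries thus lay above every healthy and every earlier acute library. In the chronic course Ctss was at 369, 422, 79.7 and 123 CPM after 24 h, 209, 318, 101 and 280 CPM after 72 h, and 94.8, 146, 89.4 and 58.5 CPM after 14 d. No chronic library overlapped the healthy ones. Against healthy, Ctss was 29.1-fold higher at acute 7 d (log2 fold change 4.86 ± 0.55 SE, edgeR adjusted p = 1.54e-06), 11.8-fold at chronic 24 h (3.56 ± 0.52, adjusted p = 1.38e-05), 10.8-fold at chronic 72 h (3.43 ± 0.52, adjusted p = 4.74e-05) and 4.63-fold at chronic 14 d (2.21 ± 0.49, adjusted p = 0.00594). At acute 24 h the difference was -0.37 (edgeR adjusted p = 0.631) and at acute 72 h 1.14 (adjusted p = 0.0914), or 1.61 (adjusted p = 0.0252) without healthy replicate 4.

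Ctss followed the macrophage genes from library to library. The genes most like it over the 27 libraries were Fcer1g (r = 0.985), Tyrobp (r = 0.982) and Lyz2 (r = 0.981), all 3 of them members of the macrophage list. After removal of the group means the correlation of Ctss with the macrophage score, the mean log2 CPM of the 18 genes, was 0.896. When that score entered the fit, Ctss was higher at acute 7 d (log2 fold change 2.12, edgeR adjusted p = 0.001), chronic 24 h (1.47, adjusted p = 0.00144) and chronic 72 h (1.39, adjusted p = 0.00653). It was not past the threshold at chronic 14 d (0.86, adjusted p = 0.0589). The macrophage sums of acute 7 d (4500 to 11800 CPM) and healthy libraries (206 to 790 CPM) did not overlap. There the term extends the relation within groups beyond values both groups share, so group and macrophage content cannot be told apart. With depth class as a term the Ctss difference was 2.69 at chronic 24 h (edgeR adjusted p = 0.000191) and 1.00 at chronic 14 d (adjusted p = 0.361). The chronic 14 d value rests on the depth difference within chronic 24 h and 72 h, since depth and group coincide at chronic 14 d. Among libraries of higher depth the Ctss difference was 2.28 at chronic 24 h (adjusted p = 0.0025). What part of the Ctss levels came from macrophages was not tested.

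**Figure D3:**
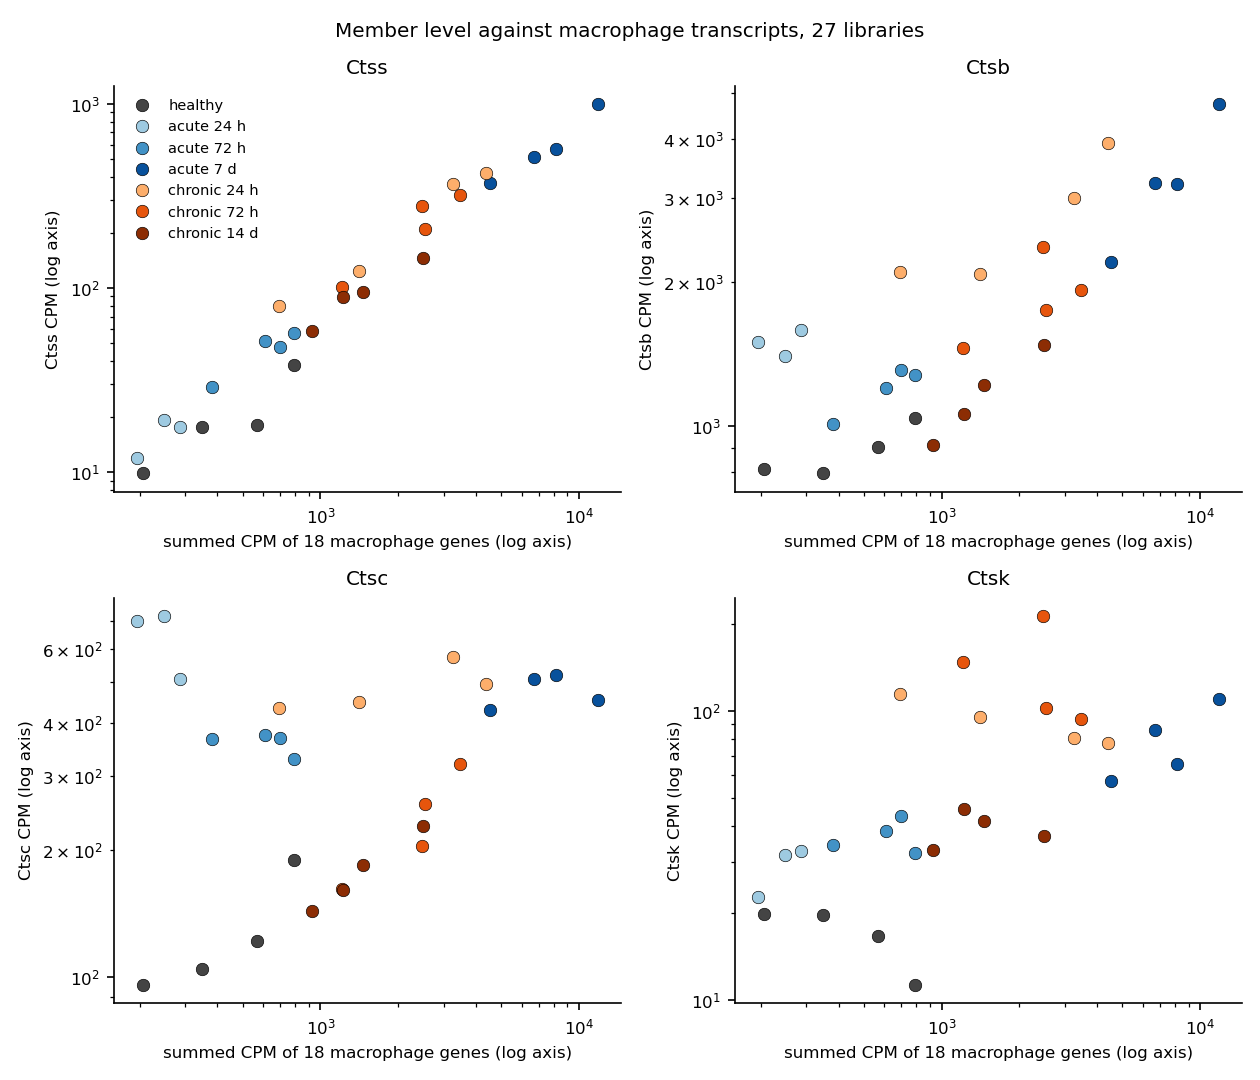
Level of Ctss, Ctsb, Ctsc and Ctsk (CPM, log axes) against the summed CPM of 18 macrophage genes, 1 point per library and colour by group. Ctss rises along 1 band from 9.85 to 992 CPM, whereas the acute 24 h libraries hold 510 to 718 CPM of Ctsc at 196 to 287 macrophage CPM and the highest Ctsk level, 213 CPM, is in a chronic 72 h library with a macrophage sum of 2470 CPM.

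Ctsh varied over the 27 libraries much as Ctss did (r = 0.905), at a lower level. It stood at 9.07, 5.36, 8.85 and 32.5 CPM in the healthy libraries, where replicate 4 also had the highest macrophage sum (790 CPM). At acute 24 h it was at 2.49, 4.34 and 2.46 CPM, below every healthy library, and at acute 7 d at 28.8, 65.1, 81.6 and 77.5 CPM, of which only the lowest overlapped the healthy range. Ctsh fell 4.49-fold at acute 24 h (log2 fold change -2.17 ± 0.50 SE, edgeR adjusted p = 0.00159) and was higher at acute 7 d (2.18 ± 0.43, adjusted p = 0.000677), chronic 72 h (1.75 ± 0.42, adjusted p = 0.00469) and chronic 24 h (1.32 ± 0.42, adjusted p = 0.0192). Healthy replicate 4 set much of the size of these differences: without it they were -1.32 at acute 24 h, 3.02 at acute 7 d, 2.60 at chronic 72 h and 2.16 at chronic 24 h. The chronic 24 h call was lost without healthy replicate 1, 2 or 3 or chronic 24 h replicate 1 or 2 (1.05 to 1.21, edgeR adjusted p from 0.0508 to 0.066), and among libraries of higher depth the difference was 0.77 (adjusted p = 0.32). At acute 72 h the 4 libraries held 10.1 to 12.4 CPM (-0.34, edgeR adjusted p = 0.609), and without healthy replicate 4 that difference was 0.50. Chronic 14 d libraries held 22.9 to 37.4 CPM (1.14, edgeR adjusted p = 0.093), a difference that passed at 1.99 (adjusted p = 0.001) without healthy replicate 4. The macrophage score as a term left Ctsh lower at acute 24 h (-1.62, edgeR adjusted p = 0.00164), with differences of 0.32 at acute 7 d (adjusted p = 0.728), 0.45 at chronic 72 h (adjusted p = 0.539) and 0.08 at chronic 24 h (adjusted p = 0.909).

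Ctsk, the collagen-cutting cathepsin, had its highest mean at chronic 72 h. Its level was 19.7, 19.9, 16.7 and 11.3 CPM in healthy HSCs, 31.8, 32.7 and 22.7 CPM at acute 24 h, 32.4, 43.3, 34.3 and 38.6 CPM at acute 72 h and 57.2, 85.9, 110 and 65.8 CPM at acute 7 d. After the chronic course it was 80.9, 77.3, 114 and 95.4 CPM at 24 h, 102, 94.1, 148 and 213 CPM at 72 h and 41.6, 37.1, 45.7 and 33.1 CPM at 14 d. None of the 6 injected groups overlapped the healthy libraries. Ctsk was the only member past the adjusted p in all 6 comparisons with healthy, and past 2-fold as well in 5 of them. The difference was 3.05 ± 0.26 (log2, SE, edgeR adjusted p = 3.4e-08) at chronic 72 h, an 8.26-fold difference, 2.45 ± 0.25 (adjusted p = 1.46e-07) at chronic 24 h and 2.24 ± 0.25 (adjusted p = 1.23e-06) at acute 7 d. It was 1.22 ± 0.25 (edgeR adjusted p = 0.00263) at chronic 14 d, 1.14 ± 0.24 (adjusted p = 0.00159) at acute 72 h and 0.79 ± 0.26 (adjusted p = 0.0219, under 2-fold) at acute 24 h.

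The correlation of Ctsk with the macrophage score was 0.677 over the 27 libraries and -0.251 after removal of group means. In chronic 24 h the 2 libraries with the lower macrophage sums, 692 and 1410 CPM, had the higher Ctsk values, 114 and 95.4 CPM. These were also the 2 of higher depth, so depth and macrophage sum cannot be told apart there. At chronic 72 h too, Ctsk was higher in the 2 libraries of higher depth (148 and 213 against 102 and 94.1 CPM). All acute 7 d libraries were of higher depth. Among them the lowest and the highest macrophage sum, 4500 and 11800 CPM, went with the lowest and the highest Ctsk, 57.2 and 110 CPM. With the macrophage score as a term Ctsk was higher by 2.70 at chronic 24 h (edgeR adjusted p = 2.9e-06), 3.33 at chronic 72 h (adjusted p = 1.59e-06), 2.64 at acute 7 d (adjusted p = 0.000394) and 1.43 at chronic 14 d (adjusted p = 0.00544). With depth class as a term the chronic 14 d difference was 1.87 (edgeR adjusted p = 0.000497). All chronic 14 d libraries were of lower and all healthy ones of higher depth. That value therefore rests on the depth difference within chronic 24 h and 72 h, the only groups with both classes. The genes most like Ctsk were Dkk3, which encodes a secreted glycoprotein (r = 0.931), Scube1 (r = 0.911) and the transcription factor gene Wt1 (r = 0.907), over 27 libraries. Ctsk and Ctss adjoin each other on chromosome 3, and their r was 0.753 over the 27 libraries and -0.178 after removal of group means. Their highest means fell in different groups. Ctsk had its highest mean in chronic 72 h (139 ± 54.8 CPM, SD, n = 4) and Ctss in acute 7 d (611 ± 266 CPM, n = 4). The Ctsk ranges of these groups overlapped (94.1 to 213 and 57.2 to 110 CPM), and the groups were not compared by a test.

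Ctsc, the dipeptidyl peptidase that activates granule serine proteases of neutrophils and other blood cells, had its highest mean at acute 24 h. Healthy libraries held 105, 96, 122 and 190 CPM and acute 24 h libraries 718, 510 and 698 CPM. The level was 330, 369, 368 and 376 CPM at acute 72 h and 431, 508, 455 and 519 CPM at acute 7 d, so that no acute library overlapped the healthy ones. Chronic libraries held 573, 495, 434 and 450 CPM at 24 h, 257, 320, 162 and 205 CPM at 72 h, and 185, 229, 161 and 144 CPM at 14 d. The 5.01-fold rise at acute 24 h (2.32 ± 0.23, edgeR adjusted p = 8.78e-08) was the only call above 2-fold in the higher direction among the members in that group. Ctsc was also called at acute 72 h (1.49 ± 0.21, edgeR adjusted p = 2.01e-05), acute 7 d (1.90 ± 0.21, adjusted p = 1.2e-06) and chronic 24 h (1.93 ± 0.21, adjusted p = 3.4e-07). At chronic 72 h its difference was under 2-fold (0.88, edgeR adjusted p = 0.00384), above it without healthy replicate 4 (1.13) or chronic 72 h replicate 3 (1.06), and at chronic 14 d 0.49 (adjusted p = 0.151).

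At acute 24 h the macrophage sum was at most 287 CPM, against 206 to 790 CPM in healthy. Of its 18 genes 1 was called higher and 3 lower there, against 9.41% and 12.5% of all genes. The neutrophil sum (6 genes) was 2.72 to 16.1 CPM there against 0 to 1.9 CPM in healthy, with 3 of 5 tested genes called higher (median 4.54, log2), and its part in the Ctsc level was not tested. Once the macrophage score was a term Ctsc was higher by 2.53 at acute 24 h (edgeR adjusted p = 5.66e-09), 1.41 at chronic 24 h (adjusted p = 6.95e-05) and 1.13 at acute 7 d (adjusted p = 0.0111). The genes most like Ctsc were Arpc5 and Actr3, subunits of the Arp2/3 complex that nucleates branched actin (r = 0.932 and 0.863), and Abracl (r = 0.864).

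Ctsb, an endopeptidase found in nearly all cells, was the most abundant cysteine cathepsin of every group per kilobase. Its level was 796, 815, 906 and 1040 CPM in healthy, 1400, 1590 and 1500 CPM at acute 24 h, 1280, 1310, 1010 and 1200 CPM at acute 72 h and 2210, 3230, 4720 and 3210 CPM at acute 7 d. At chronic 24 h it was 3010, 3920, 2100 and 2080 CPM, at chronic 72 h 1750, 1930, 1460 and 2370 CPM and at chronic 14 d 1220, 1480, 1060 and 914 CPM. The acute 7 d and chronic 24 h libraries all lay above the healthy range, by 3.76-fold (1.91 ± 0.23, edgeR adjusted p = 2.29e-06) and 3.13-fold (1.64 ± 0.22, adjusted p = 5.47e-06). Chronic 72 h followed at 2.11-fold (1.08 ± 0.22, edgeR adjusted p = 0.0011), a call that fell under 2-fold without chronic 72 h replicate 4 (0.95) and with depth class as a term (0.93). At acute 24 h Ctsb was 1.68-fold higher (0.75, edgeR adjusted p = 0.0153), with 0.97 once the macrophage score was in the fit (adjusted p = 0.000102). The same term left 0.89 at chronic 24 h (edgeR adjusted p = 0.00289), 0.84 at acute 7 d (adjusted p = 0.0378) and 0.30 at chronic 72 h (adjusted p = 0.407). The genes most like it were Atp6v1b2, a subunit of the proton pump that acidifies lysosomes (r = 0.937), and the macrophage list gene Cd68 (r = 0.919). Exons of Ctsb overlap those of Fdft1 on the other strand, which held 15 to 262 counts per library.

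Ctsd, the aspartic protease, was at 545, 541, 601 and 478 CPM in healthy, 333, 372 and 288 CPM at acute 24 h and 547, 508, 397 and 535 CPM at acute 72 h. It reached 1210, 2000, 3610 and 1590 CPM at acute 7 d, all above the healthy range. At chronic 24 h the libraries split into 1460 and 2120 CPM, both of lower depth and high macrophage sum, and 537 and 697 CPM. Chronic 72 h libraries held 885, 842, 791 and 1540 CPM and chronic 14 d libraries 642, 733, 443 and 472 CPM. Ctsd was called higher at acute 7 d (1.96 ± 0.35, edgeR adjusted p = 0.000297) and chronic 24 h (1.15 ± 0.35, adjusted p = 0.0134), and differed by 0.90 at chronic 72 h (adjusted p = 0.0664). Among libraries of higher depth the chronic 24 h difference was 0.20 (edgeR adjusted p = 0.69), without chronic 24 h replicate 2 it was 0.73 (adjusted p = 0.103), and with the macrophage score in the fit 0.01 (adjusted p = 0.989). That term gave 0.48 at acute 7 d (edgeR adjusted p = 0.572).

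Ctsa moved with Ctsd (r = 0.933 over the 27 libraries, which share processing and groups), but less. It held 128, 151, 161 and 136 CPM in healthy libraries, fell to 87.2, 103 and 91.7 CPM at acute 24 h and stood at 203, 333, 354 and 245 CPM at acute 7 d. Its decrease at acute 24 h was 1.53-fold (-0.61 ± 0.20, edgeR adjusted p = 0.0184) and its increase at acute 7 d 1.97-fold (0.98 ± 0.18, adjusted p = 0.000377), both under the 2-fold limit and with no overlap with healthy. Leaving out healthy replicate 2 or 3 or acute 7 d replicate 1 or 4 took the latter to between 1.00 and 1.12. Chronic 72 h libraries, at 188 to 266 CPM, also lay above the healthy range (0.55, edgeR adjusted p = 0.0324). In the other 3 injected groups the Ctsa difference was between -0.15 and 0.19. Ctsa shares exon sequence with Pltp on the other strand (33 to 819 counts per library), and the strand setting of the counting was not given in the sources used here.

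Ctsl, an endopeptidase close to Ctsb in range of action, and Ctsz, a carboxypeptidase, varied least among the cathepsins. Ctsl held 326 to 471 CPM in healthy libraries, and the group means ran from 296 CPM at acute 72 h to 612 CPM at acute 7 d, a 2.07-fold span in which all 6 pairs of neighbouring groups overlapped. Its 1 difference past the adjusted p against healthy was at acute 7 d, where it held 486, 523, 792 and 646 CPM (0.61 ± 0.20, edgeR adjusted p = 0.0258, 1.53-fold). For Ctsz the span of group means was 1.49-fold, from 186 to 277 CPM, and no comparison with healthy passed (edgeR adjusted p from 0.188 to 0.883). Ctsz at chronic 24 h was 414 and 296 CPM in the libraries of lower depth and 172 and 180 CPM in those of higher depth, against 152 to 232 CPM in healthy. Nelfcd, whose exons overlap Ctsz on the other strand, held 108 to 362 counts per library.

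Cst3, the inhibitor, held 1760, 1360, 1160 and 1670 CPM in healthy libraries. It was 1360, 1390 and 1230 CPM at acute 24 h, 1320, 1630, 1430 and 1330 CPM at acute 72 h and 912, 882, 1410 and 1280 CPM at acute 7 d. After the chronic course it was 679, 838, 1040 and 1070 CPM at 24 h, 1040, 1200, 1330 and 1940 CPM at 72 h and 1270, 1350, 986 and 1100 CPM at 14 d. Only chronic 24 h did not overlap the healthy range, and only there did it pass the adjusted p (-0.71 ± 0.20, edgeR adjusted p = 0.00818, 1.64-fold lower). With depth class as a term this difference was -0.48 (edgeR adjusted p = 0.0623), and with the macrophage score -0.74 (adjusted p = 0.0479). The correlation of Cst3 with that score was -0.392 over the 27 libraries and 0.0164 after removal of group means.

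Per kilobase, the 7 cysteine cathepsins together stood at 0.349 ± 0.0626 (SD, n = 4) of the Cst3 level in healthy HSCs. The ratio was 0.567 ± 0.0531 (n = 3) at acute 24 h, 0.445 ± 0.0647 (n = 4) at acute 72 h and 1.62 ± 0.302 (n = 4) at acute 7 d. In the chronic course it was 1.6 ± 0.803 at 24 h, 0.837 ± 0.185 at 72 h and 0.566 ± 0.0775 at 14 d (n = 4 each). At chronic 24 h the ratio ran from 0.907 to 2.42, against 1.36 to 1.92 at acute 7 d. The 2 chronic 24 h libraries of lower depth had macrophage sums of 3250 and 4380 CPM, those of higher depth 692 and 1410 CPM. The part of depth and macrophage content in the ratio was not tested. Each injected group except acute 72 h, whose range of 0.383 to 0.512 overlapped, lay above the healthy range of 0.287 to 0.432. The composition of the sum changed as well. Ctss made up 1.89 to 6.74% of it in healthy and 28.1 to 35.5% in acute 7 d libraries, whereas Ctsk made up 1.78 to 3.42% in healthy and 6.54 to 14.5% in chronic 72 h libraries.

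**Figure D4:**
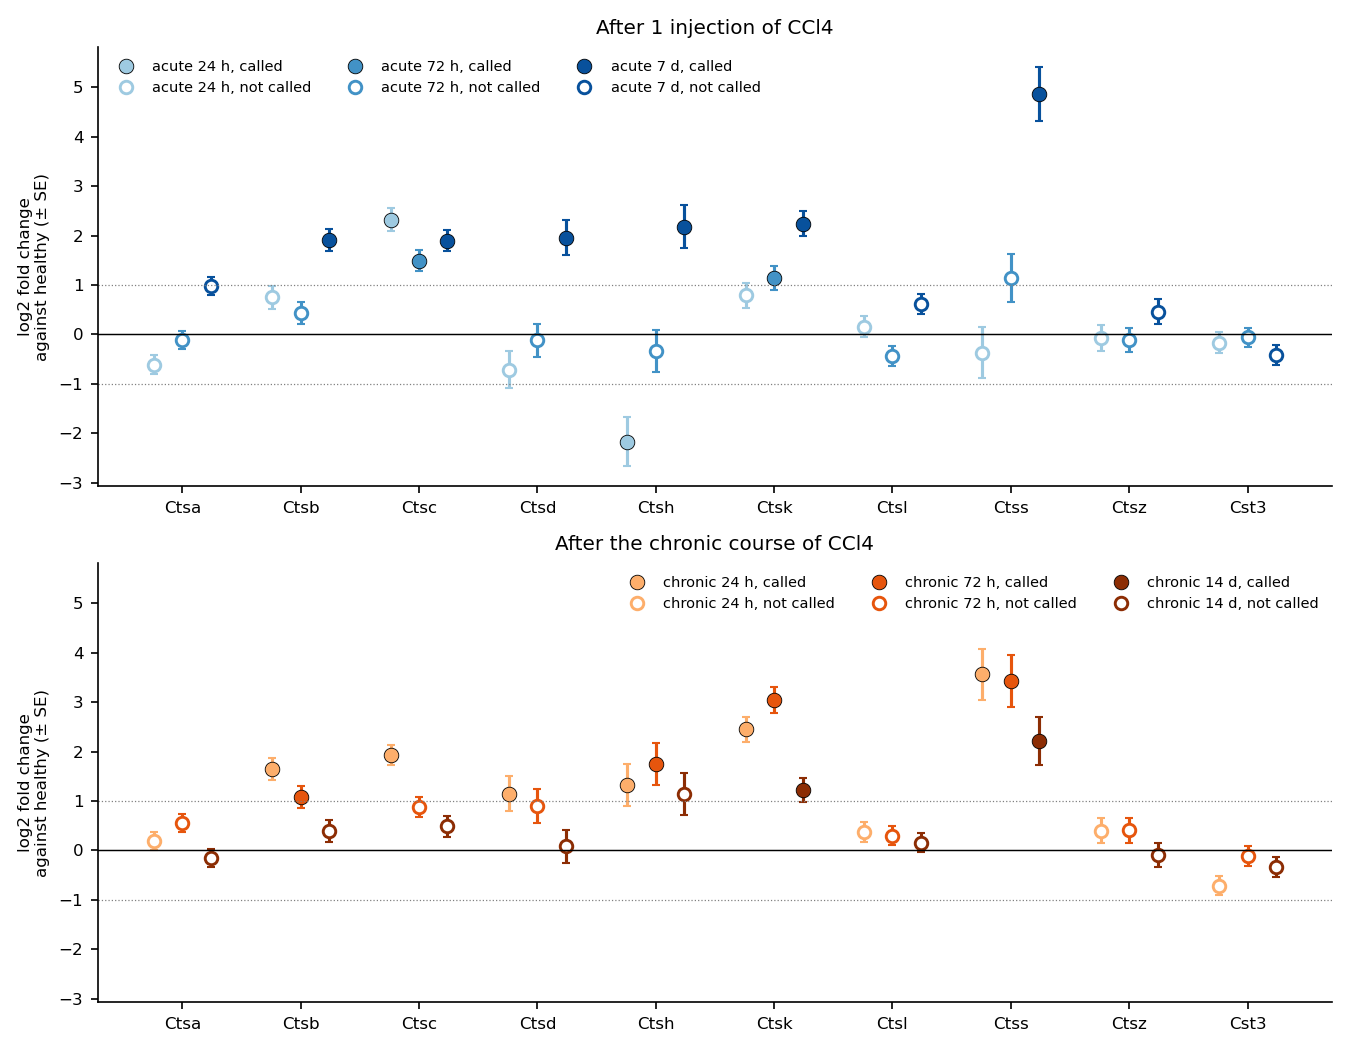
Log2 fold change against healthy (± SE, edgeR) of each member at 3 times after 1 injection (top) and after the chronic course (bottom), filled where the adjusted p was below 0.05 and the change above 2-fold. Ctsc is the only member filled as higher at acute 24 h, and Ctsk and Ctss are the 2 filled at all 3 chronic times.

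Counted by comparison, with edgeR's quasi-likelihood test, an adjusted p below 0.05 and more than 2-fold, 6 of 10 members were called higher at chronic 24 h and 0 lower, where 11.2% of the 18758 genes tested were called higher and 8.11% lower. These were Ctsb, Ctsc, Ctsd, Ctsh, Ctsk and Ctss, and 4 of them (Ctsb, Ctsc, Ctsk and Ctss) were also called among libraries of higher depth. The share of all genes called at that setting is not given here, and the 11.2% is of the fit of all 27 libraries. At chronic 72 h 4 were higher (Ctsb, Ctsh, Ctsk and Ctss) and 0 lower, against 7.88% and 4.2% of all genes. At chronic 14 d Ctsk and Ctss were higher and 0 lower, against 4.55% and 1.17%. The median difference of the members was 1.24 at chronic 24 h, 0.89 at 72 h and 0.28 at 14 d (log2), while that of all tested genes lay between -0.03 and 0.00.

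After 1 injection 1 member was higher (Ctsc) and 1 lower (Ctsh) at 24 h, against 9.41% and 12.5% of all genes, a median over the members of -0.12, equal to that of all genes. At 72 h Ctsc and Ctsk were higher and 0 members lower, against 8.23% and 4.33%, and the Ctsk call fell just under 2-fold (0.99) without healthy replicate 4. At 7 d 6 were higher and 0 lower, the same 6 genes as at chronic 24 h, against 9.23% and 5.64%, with a median of 1.90 over the members and 0.01 over all genes. The comparisons share the healthy libraries, so their lists are not independent. Under the macrophage term Ctsc, Ctsk and Ctss were called at acute 7 d and chronic 24 h, Ctsk and Ctss at chronic 72 h and Ctsk at chronic 14 d. The share of all genes called under that term is not given here. The macrophage sums at acute 7 d, chronic 72 h and chronic 14 d did not overlap those of healthy libraries. In these groups the term cannot tell group from macrophage content.

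The 2 injury courses were compared directly at equal times. At 24 h 4 members were higher after the chronic course than after 1 injection and 0 lower, where 10.9% of genes were higher and 3.05% lower. The differences were 3.93 ± 0.60 (log2, SE) for Ctss (edgeR adjusted p = 5.44e-05), 3.49 ± 0.52 for Ctsh (adjusted p = 4.52e-05), 1.86 ± 0.39 for Ctsd (adjusted p = 0.00138) and 1.66 ± 0.27 for Ctsk (adjusted p = 0.000116). Among libraries of higher depth, to which all acute 24 h libraries belong, they were 2.61 for Ctss (edgeR adjusted p = 0.00397), 2.90 for Ctsh (adjusted p = 0.0049) and 1.81 for Ctsk (adjusted p = 0.000584), and Ctsd was not called (0.87, adjusted p = 0.111). Ctsc did not differ past the threshold (-0.40 ± 0.22, edgeR adjusted p = 0.217). At 72 h the same 4 genes were higher and 0 lower, against 5.11% and 4.01% of all genes: Ctss by 2.29, Ctsh by 2.10, Ctsk by 1.91 and Ctsd by 1.03, the last with an edgeR adjusted p of 0.046 that was lost without any 1 of 7 of the 8 libraries (0.76 to 1.15, all but chronic 72 h replicate 3). Ctsc was lower by 1.53-fold at that time (-0.61, edgeR adjusted p = 0.047). With the macrophage score as a term Ctsk was higher after the chronic course by 1.98 at 24 h (edgeR adjusted p = 0.00111) and 2.13 at 72 h (adjusted p = 0.000191), and Ctsc was lower by more than 2-fold at both times, at -1.12 (adjusted p = 0.00778) and -1.14 (adjusted p = 0.00378). Ctsh and Ctss kept a call at 24 h under that term (1.70 and 1.11) but Ctsd did not (0.46), and none of these 3 kept one at 72 h. The macrophage sums of the 2 courses did not overlap at 24 h (692 to 4380 against 196 to 287 CPM). Nor did they at 72 h (1210 to 3460 against 381 to 788 CPM). At both times group and macrophage content therefore cannot be told apart by this term.

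During 14 days of recovery from the chronic course 5 members fell and 0 rose, where 6.11% of genes were lower and 6.65% higher than at chronic 24 h. The decrease was 2.72-fold for Ctsc (-1.44 ± 0.21, edgeR adjusted p = 2.9e-05), 2.38-fold for Ctsb (-1.25 ± 0.22, adjusted p = 0.000248) and 2.34-fold for Ctsk (-1.22 ± 0.24, adjusted p = 0.000807), all 3 without overlap between the groups. Ctsd (-1.07, edgeR adjusted p = 0.0266) and Ctss (-1.35, adjusted p = 0.0431) fell with overlap. Both lost their call without chronic 24 h replicate 1 or 2 or chronic 14 d replicate 3 or 4 (-0.65 to -0.97 for Ctsd, -0.97 to -1.27 for Ctss), and Ctss also without chronic 14 d replicate 1 (-1.34). Among libraries of lower depth both were called, Ctsd with an edgeR adjusted p of 0.00727 and Ctss at -1.98 (adjusted p = 0.00893), while Ctsk was under 2-fold (-0.95, adjusted p = 0.0117). With the macrophage score as a term Ctsd and Ctss were not called (-0.70 and -0.62). Ctsh was at -0.18 (edgeR adjusted p = 0.81). From acute 24 h to acute 7 d 6 members rose and 0 fell, against 17.8% and 9.24% of all genes. Ctss rose 37.6-fold, Ctsh 20.3-fold, Ctsd 6.36-fold, Ctsa 3.02-fold, Ctsk 2.74-fold and Ctsb 2.23-fold (edgeR adjusted p from 1.37e-06 to 0.00057), while Ctsc was at -0.43 (adjusted p = 0.129). The Ctsb rise was under 2-fold without acute 7 d replicate 3 (0.95). Under the macrophage term Ctsh, Ctsk and Ctss were called (1.94, 1.92 and 1.76), Ctsa, Ctsb and Ctsd were not (0.88, -0.14 and 0.93), and Ctsc was called lower (-1.40, edgeR adjusted p = 0.00518). The macrophage sums of acute 24 h and acute 7 d did not overlap, so here too group and macrophage content cannot be told apart.

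Other lysosomal genes were counted from lists by function. In the list of other cathepsins and legumain 5 of 14 genes could be tested. At chronic 24 h 2 were called higher and 1 lower (median -0.41, log2), where 11.2% and 8.11% of all genes were. At acute 7 d 2 were higher and 0 lower (median 0.82), against 9.23% and 5.64%. At acute 24 h 0 were higher and 2 lower (median -1.64), against 9.41% and 12.5%. The medians of the 10 members were 1.24, 1.90 and -0.12 in these comparisons. Ctso fell at chronic 24 h (-1.18 ± 0.16, edgeR adjusted p = 6.41e-06) and acute 24 h (-1.64 ± 0.18, adjusted p = 4.93e-07), and Ctsf fell at acute 24 h (-2.09 ± 0.32, adjusted p = 2.32e-05) and rose at acute 7 d (1.24 ± 0.27, adjusted p = 0.00188). Lgmn, the asparaginyl endopeptidase legumain, was higher at chronic 24 h (279 against 139 CPM, 1.00 ± 0.28, edgeR adjusted p = 0.00735). Among 19 other cystatins and stefins, of which 6 could be tested, Cstb, a cytosolic inhibitor of cysteine cathepsins, rose from 34.9 to 118 CPM at acute 24 h (1.76 ± 0.28, edgeR adjusted p = 3.9e-05), to 113 CPM at chronic 24 h (1.70 ± 0.27, adjusted p = 3.17e-05) and to 73.7 CPM at acute 7 d (1.08 ± 0.26, adjusted p = 0.0043). The liver plasma members of that list, Kng1, Kng2, Hrg and Ahsg, fell at acute 24 h together with 7 of 8 hepatocyte genes.

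Of 35 other lysosomal hydrolases and activators, 7 were higher and 0 lower at acute 7 d, against 9.23% and 5.64% of all genes. At chronic 24 h 6 were higher and 0 lower, against 11.2% and 8.11%. At acute 24 h 0 were higher and 10 lower, against 9.41% and 12.5%. Acp5, tartrate-resistant acid phosphatase, rose from 16.1 to 94.4 CPM at acute 7 d (2.55 ± 0.47, edgeR adjusted p = 0.000411), beside Psap, precursor of the saposins (1.33 ± 0.23, adjusted p = 0.000152), and Npc2, a cholesterol carrier (1.33 ± 0.18, adjusted p = 1.28e-05). Gm2a, the activator of hexosaminidase A, was the most reduced at acute 24 h, from 156 to 38 CPM (-2.04 ± 0.25, edgeR adjusted p = 1.52e-06). The median over this list was -0.02 at chronic 24 h and 0.57 at acute 7 d, below the 1.24 and 1.90 of the members. Of 24 lysosomal membrane proteins 1 was higher and 0 lower at chronic 24 h, namely Cd63 (553 against 180 CPM, 1.62 ± 0.19, edgeR adjusted p = 6.86e-07). Of 18 proton pump subunits 3 were higher at chronic 24 h and 2 at acute 7 d, against 11.2% and 9.23% of all genes. Atp6v1b2 was among them at both times (1.03 and 1.10).

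Of 13 genes that sort enzymes to lysosomes 1 was higher and 0 lower at chronic 24 h, against 11.2% and 8.11% of all genes. At acute 24 h 2 were lower, against 12.5% of all genes. Among these was Igf2r, the large mannose 6-phosphate receptor (-1.47 ± 0.26, edgeR adjusted p = 0.000145). Of 13 regulators of lysosomal genes 4 were higher and 1 lower at chronic 24 h. Rragd, a Rag GTPase of the nutrient-sensing complex at the lysosome, fell from 159 to 41.5 CPM at chronic 24 h (-1.94 ± 0.24, edgeR adjusted p = 1.7e-06) and to 38.2 CPM at acute 24 h (-2.06 ± 0.27, adjusted p = 3.76e-06). Class II antigen processing, the pathway Ctss serves, had 8 of 11 genes higher at chronic 24 h, 8 at chronic 72 h, 7 at chronic 14 d and 10 at acute 7 d, and 1 higher and 7 lower at acute 24 h. H2-Ab1 rose from 23.6 to 283 CPM at acute 7 d (3.59 ± 0.68, edgeR adjusted p = 0.000511). Macrophage genes were called higher in 14 of 18 at chronic 24 h, 14 at chronic 72 h, 8 at chronic 14 d, 1 at acute 72 h and 16 at acute 7 d. Stellate cell genes were called lower in 8 of 12 at chronic 24 h and 6 of 12 at acute 7 d, with medians of -1.50 and -0.90. They were also called lower in 5 of 12 at acute 24 h and 6 of 12 at acute 72 h, with medians of -0.70 and -0.99. Of all genes 11.2% were called higher at chronic 24 h, 7.88% at chronic 72 h and 4.55% at chronic 14 d. After 1 injection 9.41% were higher at 24 h, 8.23% at 72 h and 9.23% at 7 d. The share lower was 8.11% at chronic 24 h and 12.5%, 4.33% and 5.64% at acute 24 h, 72 h and 7 d.

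**Figure D5:**
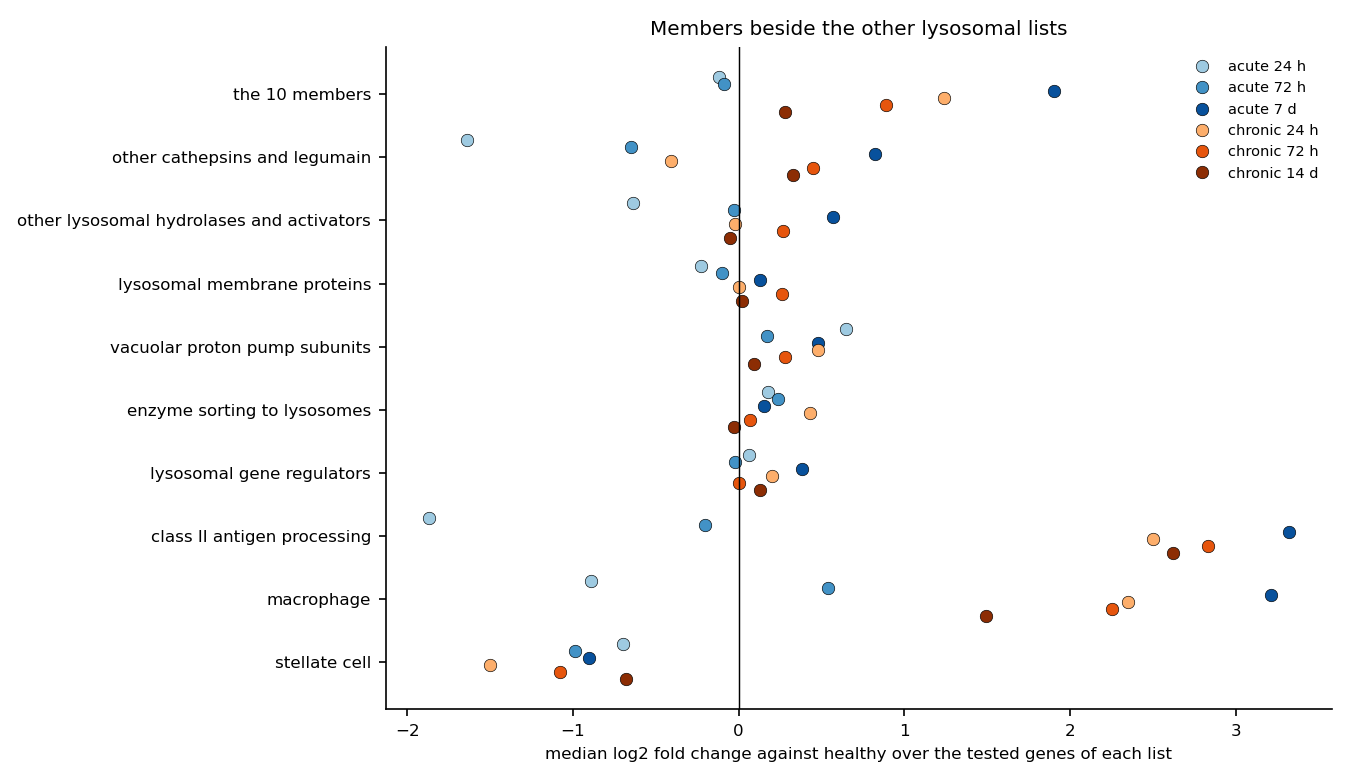
Median log2 fold change against healthy over the tested genes of each list, coloured by group. The 10 members reach 1.90 at acute 7 d, above the 0.57 of the other lysosomal hydrolases and below the 3.21 of the macrophage and 3.32 of the class II list.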

How the data were processed

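Raw counts per Ensembl gene were used as deposited for 27 libraries of 7 groups. The authors trimmed single-end reads, aligned them with STAR to GRCm38 and assembled genes with StringTie. Versions of these tools, the strand setting and the way the counts were derived were not given in the sources used here. Of 53379 genes, 53274 matched GENCODE M21 and 16198 had no count. Members and gene lists were chosen with earlier results of these data known. Genes were filtered by group with filterByExpr (18758 kept), scaled by TMM and tested with edgeR 4.0.16 (R 4.3.3) by the quasi-likelihood F test, with robust dispersions and all 27 libraries in 1 fit of group means. A gene was called when its p, adjusted over all genes tested by Benjamini-Hochberg, was below 0.05 and its change exceeded 2-fold. Standard errors were the log2 fold change over the square root of F. Levels are CPM on TMM library sizes. Log2 CPM had a prior count of 2, and per-kilobase values used the union of exons. DESeq2 1.42.0, other scalings and filters, depth class, a macrophage score (mean log2 CPM of 18 genes), a replicate block and the omission of each library in turn were alternatives. Where the macrophage sums of 2 groups did not overlap, the macrophage term cannot tell group from macrophage content. The study itself used DESeq2. Steps were tested on simulated counts. All 10 members were named. From the other lists at most 4 genes per comparison with the largest change and a mean log2 CPM of at least 3 were eligible, and the 3 genes most like each member by Pearson correlation over the libraries (10292 genes compared). The sources used here do not tie libraries to single mice, so p-values measure the spread between libraries, which differed by 15.5 to 82.1 times the counting variance within groups. Figures were drawn with matplotlib 3.10.9.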

Additional observations from a re-analysis of the deposited data

Results flagged for a closer look

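In chronic 72 h replicate 4 the Ctsa level was 266 CPM against 188 to 195 CPM in the other 3 libraries, and its Ctsd level was 1540 CPM against 791 to 885 CPM. These are the 2 of 60 member and group pairs in which 1 library stood apart by Dixon's test, which chance alone flags in about 1 of 20 groups. The library had a macrophage sum of 2470 CPM, within the range of its group (1210 to 3460 CPM), and was of the higher depth class. The part of cell makeup in these values was not tested.

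Effects against healthy differed between the chronic and the acute course for the same 4 members at both shared times. The edgeR test was of the difference against no change, and the estimates were above 2-fold. At that setting 10.9% of all genes were higher and 3.05% lower at 24 h, and 5.11% and 4.01% at 72 h. With no fold minimum 6 members differed at 24 h and 8 at 72 h, and the share of all genes at that setting is not given here. At 24 h the difference in log2 fold change was 1.86 for Ctsd, 3.49 for Ctsh, 1.66 for Ctsk and 3.93 for Ctss. Among libraries of higher depth the Ctsd difference was 0.87 (edgeR adjusted p = 0.111, not called) and the Ctss difference 2.61. At 72 h the difference was 1.03 for Ctsd, 2.10 for Ctsh, 1.91 for Ctsk and 2.29 for Ctss. The Ctsd call at 72 h was lost without any 1 of 7 of the 8 libraries and with a replicate block (edgeR adjusted p = 0.0528). The macrophage sum was 692 to 4380 against 196 to 287 CPM at 24 h, and 1210 to 3460 against 381 to 788 CPM at 72 h.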

How the results depend on the processing

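Of 1820 member fold changes under other settings or without 1 library, 1669 kept direction and side of the threshold, 65 lost and 35 gained a call and 51 changed sign. Among the settings, an adjusted p below 0.1 and no fold minimum only loosened the threshold on the reported fit. No call could be lost and no sign changed there. They make up 98 and 86 of those kept, and 2 and 14 of the calls gained. Of the 51 that changed sign, 3 had been past the adjusted p as reported, all under the macrophage score (Ctsl at acute 7 d, and Ctsb for chronic 24 h and for acute 7 d against acute 24 h). Members called at chronic 14 d against chronic 24 h were 5, and 3 with library size alone, with no filter on low counts, with the 2 compared groups only and with the macrophage score, and 3 to 5 without 1 library, with 3 when chronic 24 h replicate 1 or 2 or chronic 14 d replicate 3 or 4 was left out. With no fold minimum 5 members passed at acute 24 h and 8 at chronic 72 h against acute 72 h. With depth class as a term 1 was called at chronic 14 d against healthy, where depth and group coincide and the term rests on chronic 24 h and 72 h. With the macrophage score 3 were called at chronic 24 h, 2 at chronic 72 h, 1 at chronic 14 d, 3 at acute 7 d and 2 at chronic 72 h against acute 72 h. The cause of these shifts was not tested. The share of all genes past each of these other settings is not given here, so these member counts have no background beside them.

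Differences that changed sign are given as log2 values. With library size alone they were Ctsa 0.02 and Ctsz 0.08 at chronic 14 d and Cst3 0.05 at acute 72 h, and with 2 groups only Ctsz at acute 24 h was 0.00. With depth class as a term Cst3 was 0.12 at chronic 72 h, 0.17 at chronic 14 d and 0.18 for chronic 72 h against acute 72 h, and Ctsd was -0.47 at chronic 14 d. Among higher-depth libraries Ctsa was -0.10 and Ctsz -0.18 at chronic 24 h, Cst3 0.17 at chronic 72 h, Ctsl -0.14 and Ctsz -0.15 for chronic 24 h against acute 24 h, and Cst3 0.24 for chronic 72 h against acute 72 h. With the macrophage score the values at chronic 24 h were -0.24 for Ctsa, -0.10 for Ctsl and -0.32 for Ctsz, at chronic 72 h -0.15 for Ctsd, -0.18 for Ctsl and -0.32 for Ctsz, at chronic 14 d -0.16 for Ctsb, -0.68 for Ctsd and -0.18 for Ctsl, at acute 24 h 0.36 for Ctss and 0.09 for Ctsz, and at acute 7 d -0.07 for Ctsl and -0.52 for Ctsz. Between injured groups that term gave Ctsb -0.08, Ctsl -0.40 and Ctsz -0.42 for chronic 24 h against acute 24 h, Ctsz -0.05 for chronic 72 h against acute 72 h, Ctsh 0.22 for chronic 14 d against chronic 24 h, and Ctsb -0.14, Ctsl -0.38 and Ctsz -0.61 for acute 7 d against acute 24 h.

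Without 1 library, the range for Cst3 was -0.16 to 0.03 at acute 72 h, -0.32 to 0.00 at chronic 72 h and -0.26 to 0.06 for chronic 72 h against acute 72 h. For Ctsz it was -0.18 to 0.10 at acute 24 h and -0.27 to 0.06 at chronic 14 d, for Ctss -0.60 to 0.10 at acute 24 h, for Ctsh -0.61 to 0.50 at acute 72 h and -0.36 to 0.03 for chronic 14 d against chronic 24 h, for Ctsl -0.02 to 0.31 for chronic 24 h against acute 24 h and -0.31 to 0.02 for chronic 14 d against chronic 24 h, and for Ctsd -0.02 to 0.23 at chronic 14 d.

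Same-numbered libraries were not taken as paired, since no comparison had a correlation of their deviations above 0.1 in every pair. These correlations ran from -0.172 to 0.172 over the 10 comparisons. For chronic 72 h against acute 72 h all were positive (0.0575 to 0.172), and 3 of 4 libraries were most like their own number. For chronic 14 d against chronic 24 h they were 0.0231 to 0.149, with 2 of 4. A replicate block ended the call of Ctsd for chronic 72 h against acute 72 h (1.05, edgeR adjusted p = 0.0528) and of Ctss for chronic 14 d against chronic 24 h (-1.27, adjusted p = 0.065) and no other.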
